A study of Mus musculus with 2 samples.

Results

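Transcription factor genes that pattern the anterior neural plate and the optic primordium were examined as a set of 10: Otx1, Otx2, Six3, Six6, Rax, Vax1, Vax2, Hesx1, Fezf1 and Pax2. They were taken by gene name, with no threshold on their values, and all 10 were found among the 43346 Ensembl genes of the deposited tables, of which 21474 are protein-coding. The study measured total RNA in the forebrain of healthy C57BL/6NCrl mouse embryos (strain B6NCrl in the labels) at embryonic day 11.5, with no mutation, transgene or treatment named. Its 1 group held 2 libraries, replicate 1 from a pool of 109 embryos and replicate 2 from a pool of 88, with both sexes in each pool. Each library was made from 10 ng of RNA longer than 200 nucleotides and held 23165260 (replicate 1) or 33597028 (replicate 2) expected counts on Ensembl genes. There was no second tissue, age or genotype, so the data give the level of each factor in this tissue and its spread over 2 pools.

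The anterior neural plate is the front end of the neural ectoderm and gives rise to the telencephalon, the hypothalamus and, from paired evaginations, the optic vesicles. Otx, Six3, Hesx1 and Fezf genes act early in setting up forebrain identity. Rax, Six6, Vax and Pax2 genes are best known from the eye field, the hypothalamus and the optic stalk and cup. By the age studied here the optic cup has formed beside the forebrain, and several of these genes are known to have narrowed to small ventral or optic domains.

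The factors belong to a few DNA-binding classes, which the coding sequences show directly. A search for the recognition helix of the homeodomain, the stretch that enters the major groove of DNA, matched 8 of the 10 genes. The others are Fezf1, which encodes a zinc finger protein, and Pax2, which carries a paired box. The 45 bases below encode that helix in 6 of the 8. They are shown 5′ to 3′ on the gene's strand from GENCODE M21 transcripts (GRCm38), and the capitals mark the codon of homeodomain residue 50, which helps set the preferred DNA letters.
Otx1: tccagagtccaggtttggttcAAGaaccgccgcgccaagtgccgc
Otx2: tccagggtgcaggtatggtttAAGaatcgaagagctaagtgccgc
Six3: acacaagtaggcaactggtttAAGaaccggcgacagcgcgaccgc
Six6: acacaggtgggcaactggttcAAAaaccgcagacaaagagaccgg
Vax1: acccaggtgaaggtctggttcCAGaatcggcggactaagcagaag
Hesx1: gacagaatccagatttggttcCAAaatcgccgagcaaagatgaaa
The codon reads lysine in Otx1, Otx2, Six3 and Six6 and glutamine in Vax1 and Hesx1. Within the paralog pairs, 36 of 45 bases are identical in Otx1 and Otx2 and 35 in Six3 and Six6, against 16 to 30 in every other pair of these 6 genes. All of these stretches are coding, and 4 of them cross an exon junction: Otx1 (chr11:21997026-21998381, minus strand), Otx2 (chr14:48659294-48661310, minus), Vax1 (chr19:59166736-59168476, minus) and Hesx1 (chr14:27001909-27002038, plus). Six3 (chr17:85621984-85622028, plus) and Six6 (chr12:72940563-72940607, plus) keep theirs within 1 exon.

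The close sequence of the paralogs could in principle let reads fit both genes. In the M21 sequences of the deposited transcripts, no factor had a 100-base window in common with another gene on the same strand. The deposited Otx2-201 is 140 bases longer than its M21 model, so the search may not cover all of its bases. The longest identical run was 18 bases between Otx1 and Otx2, 20 between Six3 and Six6 and 23 between Vax1 and Vax2, and the longest run found with any other relative searched was 60 bases, between Six3 and Six2. The window of 100 bases was taken because the effective lengths in the tables are 99 bases shorter than the transcripts. By these M21 sequences, reads of that length would not be shared between the paralogs.

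Levels are given as TPM, length-scaled transcript abundances, which scale reads by transcript length and allow genes to be compared. The factors ranged from well expressed to close to the counting limit. At least 1 TPM in each library, taken as detection, was measured for 6 of the 10 factors and for 58.6% of all protein-coding genes, so the share of factors detected is close to that background. The 10 levels summed to 143.3 TPM in replicate 1 and 146.2 TPM in replicate 2 (144.7 ± 2.04, SD, n = 2). Otx2, Otx1, Fezf1 and Six3 together held 94.9% and 94.2% of that sum. The median factor had 3.36 and 3.65 TPM, beside 3.99 and 3.89 TPM for all protein-coding genes.

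**Figure D1:**
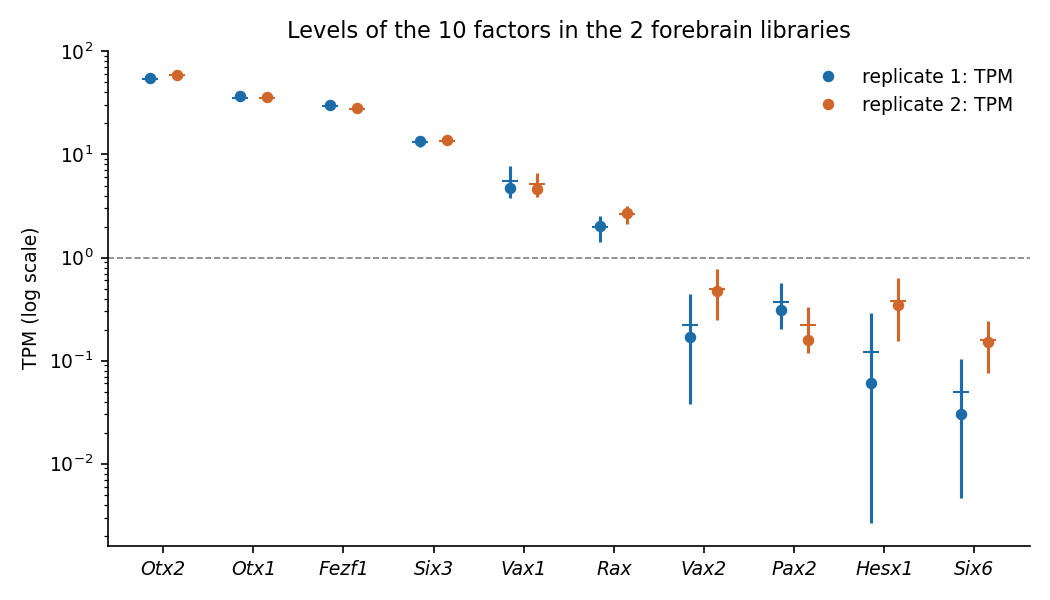
Level of each factor in TPM (log scale) in replicate 1 (blue) and replicate 2 (orange). Dots are deposited TPM, short horizontal ticks the deposited posterior mean, vertical lines the deposited credibility bounds and the dashed line 1 TPM: Otx2, Otx1, Fezf1, Six3, Vax1 and Rax lie above it in both libraries, and the other 4 lie below it with wide bounds.

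Otx2, a homeobox gene needed for the forming forebrain and midbrain and later for retinal pigment epithelium and choroid plexus, had the highest level of the 10. It stood at 55.5 TPM in replicate 1 and 59.6 TPM in replicate 2 (57.6 ± 2.93, SD, n = 2), from 1525 and 2350 expected counts (ENSMUSG00000021848.11, chr14:48657677-48673819, minus strand). That level is above those of 86.7% of protein-coding genes. Its paralog Otx1, which acts in the dorsal telencephalon and in sense organs, stood at 36.6 and 36.0 TPM (36.3 ± 0.467, SD, n = 2), from 1540 and 2210 expected counts (ENSMUSG00000005917.11, chr11:21994764-22002897, minus). Otx2 was higher than Otx1 in both libraries, and the deposited credibility bounds of the pair, whose level the files do not state, did not overlap. The ratio of Otx2 to Otx1 was 1.52 in replicate 1 (95% exact interval of counting error 1.41 to 1.63) and 1.66 in replicate 2 (1.56 to 1.76). Expected counts alone put the pair nearly level, at a mean ratio of 1.03, since Otx1 transcripts are longer and collect more reads per molecule.

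Six3, a homeobox repressor that holds back posteriorizing Wnt signals at the front of the plate and is needed for eye and forebrain, stood at 13.5 TPM in replicate 1 and 13.8 TPM in replicate 2 (13.7 ± 0.233, SD, n = 2; 535.2 and 770.0 expected counts; ENSMUSG00000038805.10, chr17:85613608-85629302, plus). Its paralog Six6, a regulator of retinal progenitors and of the hypothalamic and pituitary axis, stood at 0.030 and 0.15 TPM from 2 and 13.2 expected counts (ENSMUSG00000021099.6, chr12:72939892-72944899, plus). Six6 had the lowest mean of the 10. Per effective length, Six3 exceeded Six6 by 403.9 times in replicate 1 (exact interval 111.2 to 3342.5) and by 91.0 times in replicate 2 (53.5 to 173.7). The 2 counts behind Six6 in replicate 1 make its ratio imprecise, and the intervals of the libraries overlap. In a bulk sample such as this, fewer cells of a type and less RNA per cell cannot be told apart.

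Rax, the eye-field homeobox gene that is also needed for the hypothalamus, was the lowest of the detected factors, at 2.01 TPM in replicate 1 and 2.71 TPM in replicate 2 (2.36 ± 0.495, SD, n = 2; 48.3 and 94 expected counts; ENSMUSG00000024518.3, chr18:65928277-65939787, minus). Vax1, a ventral homeobox gene of the optic stalk, preoptic area and basal forebrain, stood at 4.71 and 4.59 TPM (4.65 ± 0.0849, SD, n = 2; 68 and 96 expected counts; ENSMUSG00000006270.7, chr19:59166187-59170056, minus). Its paralog Vax2, a gene of the ventral retina, stood at 0.17 and 0.47 TPM from 3 and 12 counts (ENSMUSG00000034777.2, chr6:83711264-83738313, plus). Vax1 was thus the expressed member of the pair in both libraries. Its level exceeded that of Vax2 per effective length by 27.4 times in replicate 1 (exact interval 8.99 to 136.2) and by 9.68 times in replicate 2 (5.29 to 19.4).

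Hesx1, a paired-like homeobox repressor of the earliest anterior plate and later of the pituitary primordium, was found at 0.060 and 0.35 TPM. That is 1 count in replicate 1 (95% exact Poisson interval 0.0253 to 5.57) and 8 counts in replicate 2 (3.45 to 15.8; ENSMUSG00000040726.9, chr14:26994416-27002329, plus). Pax2, a paired-box gene of the optic stalk and of the isthmus at the midbrain border, stood at 0.31 and 0.16 TPM, from 15 counts in each library (8.40 to 24.7; ENSMUSG00000004231.11, chr19:44756045-44837871, plus). Of the Pax2 relatives in the same subfamily, Pax8 stood at 0.58 and 0.62 TPM and Pax5 at 0.30 and 0.080 TPM. Per effective length the ratio of Pax2 to Pax8 was 0.529 (0.231 to 1.24) and 0.256 (0.117 to 0.563). In replicate 2 both genes had 15 counts, so that ratio is below 1 only through their lengths. The intervals hold lengths fixed, while the Pax2 length was 3282.5 bases in replicate 1 and 4358 in replicate 2. Pax2 and Pax8 were therefore not ordered. All 3 genes of the subfamily were below 1 TPM in both libraries.

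Fezf1, a zinc finger repressor of the forebrain that is also needed by olfactory sensory axons, stood at 30.4 TPM in replicate 1 and 28.3 TPM in replicate 2 (29.3 ± 1.47, SD, n = 2; 1026 and 1382 counts; ENSMUSG00000029697.5, chr6:23245044-23248362, minus). It was the third highest of the 10, and above 76.5% of protein-coding genes. Its paralog Fezf2, known for specifying deep-layer cortical neurons, stood at 35.1 and 38.2 TPM. The ratio of Fezf1 to Fezf2 was 0.865 (exact interval 0.795 to 0.941) in replicate 1 and 0.742 (0.691 to 0.796) in replicate 2. The Fezf pair was thus more even than the pair of Six3 and Six6 and the Vax pair, where 1 member held nearly all of the RNA.

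In the order of mean levels, 6 of the 9 neighbouring pairs were apart in both libraries and in the deposited bounds of each. Otx1 exceeded Fezf1 by 1.24 ± 0.0461 times (SD, n = 2), Fezf1 exceeded Six3 by 2.15 ± 0.144 times, Six3 exceeded Vax1 by 2.94 ± 0.104 times and Vax1 exceeded Rax by 2.02 ± 0.459 times. Rax exceeded Vax2 by 8.79 ± 4.28 times, a ratio that rests on 3 and 12 counts of Vax2. Below that, each neighbouring pair of Vax2, Pax2, Hesx1 and Six6 could not be ordered, since their values crossed between the libraries or their bounds overlapped.

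Several of the factors lie beside an RNA gene on the opposite strand. Six3os1, a long non-coding transcript whose start lies 4790 bases downstream of that of Six3 and which crosses it in the other direction, stood at 25.6 TPM in both libraries (25.6 ± 0.0283, SD, n = 2; chr17:85600651-85618398). Six3 was at 0.529 (exact interval 0.476 to 0.587) and 0.541 (0.495 to 0.590) of the level of Six3os1, so the non-coding partner was the more abundant in both. Otx2os1, the opposite-strand gene of Otx2, stood at 3.70 and 3.61 TPM from 36 and 50 counts. Its start (chr14:48668708) lies 5111 bases from the outermost M21 start of Otx2, which belongs to a model absent from the deposited transcripts. Among the deposited Otx2 transcripts the start furthest upstream is that of Otx2-208, at chr14:48667644. Raxos1 stood at 0.070 and 0 TPM, and Vax2os and the Pax2 antisense genes Gm20395 and 1700039E22Rik had 0 counts in both libraries. Opposite-strand genes were thus assigned more than 1 TPM at the Six3 and Otx2 loci. At the Six6 locus the opposite-strand gene 4930447C04Rik, which is protein-coding, was assigned 1.66 and 2.31 TPM. The strand of the reads behind these levels is not known here. In M21, 154 exon bases of Otx2 lie opposite Otx2os1 exons, and 0 of them belong to deposited Otx2 transcripts.

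These overlaps touch the counts of 3 factors. Expected counts were whole, within 0.005, in both libraries for 7 of the 10 factors, and not for Six3, Six6 and Rax. The same 3 genes are the factors with 100-base windows in an opposite-strand gene: 78 of 5344 windows (1.46%) for Six3, 93 of 3910 (2.38%) for Six6 and 625 of 1573 (39.7%) for Rax. For Rax and Six6, counts summed with their opposite-strand partners were whole again, at 51 and 94 for Rax with Raxos1 and at 33 and 73 for Six6 with 4930447C04Rik. Six3 summed to whole counts, 1650 and 2326, with the opposite-strand genes Six3os1 and Gm28528 and with Gm27275. Gm27275 (1.48 and 0 counts) lies on the strand of Six3. How the counting used strand is not given in the sources used here, so reads within these overlaps cannot be told apart by gene. Of the summed counts, 48.3 of 51 and 94 of 94 were given to Rax, 2 of 33 and 13.2 of 73 to Six6, and 535.2 of 1650 and 770.0 of 2326 to Six3.

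Both Six3 and Six6 sit beside other genes of their family. Six2 lies 55.0 kb from Six3 and stood at 9.91 and 9.94 TPM, below Six3 in both libraries. On the side of Six6, Six4 at a distance of 154.7 kb stood at 3.95 and 4.58 TPM. The low level of Six6 was therefore not shared by Six4.

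The deposited tables list 24 transcripts for the 10 factors. Six6, Rax, Vax2, Hesx1 and Fezf1 have 1 each. Vax1-201 took all counts of Vax1. Pax2 could not be resolved, since its 15 counts fell mostly on Pax2-201 in replicate 1 (83.9% of Pax2 TPM) and all on Pax2-203 in replicate 2.

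Otx1 was dominated by 1 transcript. Otx1-201 held 86.3% of Otx1 TPM in replicate 1 and 87.0% in replicate 2 (86.6% ± 0.452, SD, n = 2). A transcript annotated with a retained intron, Otx1-203, held 7.48% and 7.84%. Unscaled for length, it took 14.1% and 14.6% of Otx1 expected counts.

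Otx2 was spread over more forms, which differ in start and in a short coding segment. Otx2-201 held 56.9% and 56.0% of Otx2 TPM (56.5% ± 0.644, SD, n = 2), and Otx2-202 held 27.6% and 28.2% (27.9% ± 0.446). Otx2-202 has 24 bases that Otx2-201 lacks, a whole 8 codons (chr14:48661451-48661474, minus strand, in a coding exon). The segment is shown in capitals with 18 bases on either side, 5′ to 3′, because it is the coding difference between the 2 main forms.
Otx2-202: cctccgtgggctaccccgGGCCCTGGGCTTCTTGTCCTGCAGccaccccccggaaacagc
Transcripts with the segment held 27.6% and 28.2% of Otx2 TPM, and those without it 72.4% and 71.8%. The form with the segment was thus the minor one in both pools, and the shares differed between the pools by less than 1 percentage point.

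Otx2-202 begins 2407 bases upstream of Otx2-201 in the M21 models. The 4 deposited transcripts with such distal starts held 41.2% and 41.7% of Otx2 TPM (41.5% ± 0.319, SD, n = 2), or 29.7% and 30.7% of Otx2 counts. The share of the distal starts therefore depends on length scaling, since 2 of these transcripts, Otx2-205 and Otx2-208, are short, at 618 and 1033 bases. These 2 models, which lack the segment, held 13.7% and 13.5% of Otx2 TPM (4.98% and 5.23% of Otx2 counts). A part of the RNA assigned to distal starts thus lacked the segment. The deposited Otx2-201 is also 140 bases longer than its M21 model.

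The Otx2 starts were looked at for letters that homeodomains of this set are known to prefer. RefSeq start windows (GRCm38.p6, 250 bases before to 50 after the first base) were found for 7 of the 10 factors. TAATCC, the core preferred by Otx proteins and other bicoid-type homeodomains, was searched on both strands and lies in 7.06% of all 32851 windows. TAATTA, preferred by many homeodomains with glutamine at residue 50, lies in 5.29%. The 2 motifs share the letters TAAT but cannot occupy the same 6 bases. Of the 12 windows of these factors, only 2 Otx2 windows held either motif. They are shown 5′ to 3′ on the Otx2 strand, with the match in capitals.
Otx2 start of Otx2-201: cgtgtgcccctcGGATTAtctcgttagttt
Otx2 start of Otx2-208: tgtccatcatttTAATTAtacaattagttc
The first (chr14:48665303-48665332) holds TAATCC read from the other strand, and it lies 211 bases before the RefSeq first base, within exons of other Otx2 models. The window of that start also holds 3 TAATTA matches. The second (chr14:48667768-48667797) lies 141 bases before the first base of Otx2-208, one of the lesser distal forms, outside annotated exons. The window nearest the start of Otx2-202, the main distal form, held neither motif. These are matches of letters, and binding was not measured.

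Six3 had 2 forms above the 20% that was set for naming a transcript. Six3-202 held 77.0% and 83.6% of Six3 TPM (80.3% ± 4.67, SD, n = 2), and Six3-203 held 20.7% and 15.1% (17.9% ± 3.97). Six3-202 starts 7226 bases upstream of Six3-203 and shares 2313 bases with it. The 106 bases of Six3-202 that no other Six3 transcript holds all lie opposite exons of Six3os1. The share of Six3-202 therefore rests partly on bases where Six3 and Six3os1 reads cannot be told apart without strand.

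**Figure D2:**
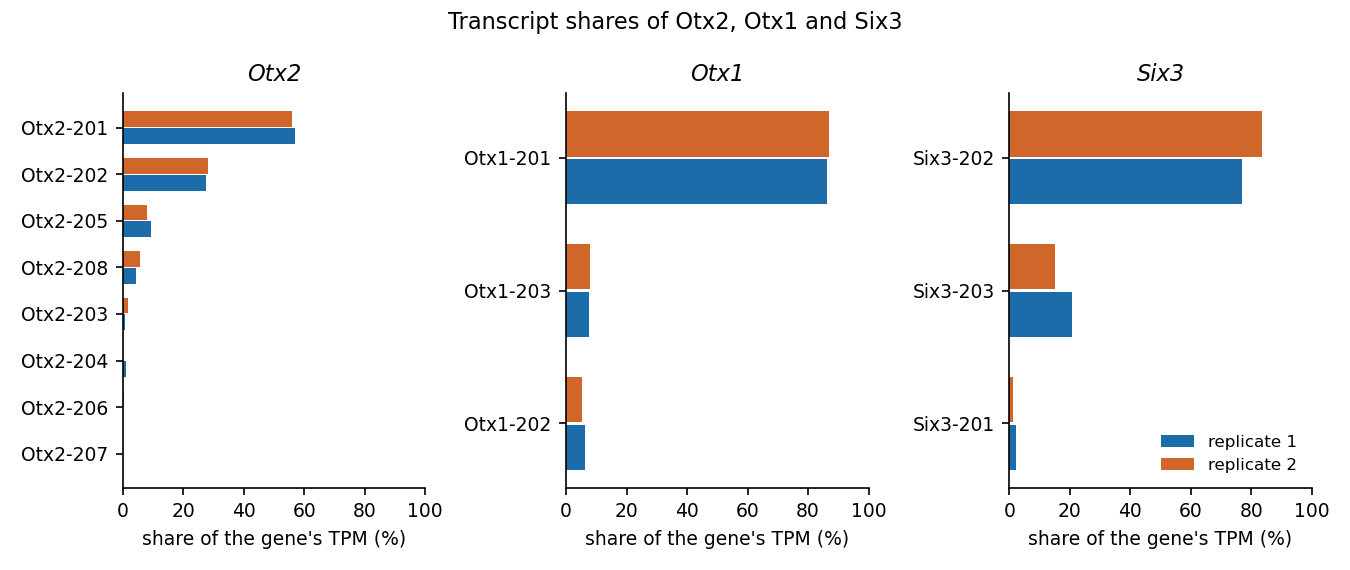
Share of each deposited transcript in the TPM of Otx2, Otx1 and Six3 (%), as bars from 0 for replicate 1 (blue) and replicate 2 (orange). Otx1-201 holds 86.3% and 87.0% and Six3-202 77.0% and 83.6%, while Otx2 is divided between Otx2-201 at 56.9% and 56.0%, Otx2-202 at 27.6% and 28.2% and shorter models.

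The 2 pools were compared gene by gene with an exact binomial test of counts, which compares these libraries and not conditions and has no replicate check. None of the 9 factors with at least 10 counts was called at an adjusted p of 0.05 (0 of 9), where 23.4% of the 18297 genes tested were called, 12.5% higher and 10.9% lower in replicate 2. In the same exact test, 2 factors had an unadjusted p below 0.05, Six6 (p = 0.0344; adjusted p = 0.113) and Otx2 (p = 0.0463; adjusted p = 0.141), beside 33.7% of all genes tested. The edgeR exact test with a common dispersion called 0 factors (0 also at an unadjusted p below 0.05) and 218 genes (1.19%). That dispersion was estimated from the same 2 libraries taken as 1 group. The usual difference between the pools thus counts as spread there, and the few calls do not show that the pools are alike. The count of 0 among 9 is thus read against a background that depends on the test.

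Per scaled library, Otx2 in replicate 2 was 1.07 times its level in replicate 1 (95% exact interval 1.001 to 1.14). Otx1 was at 0.995 times (0.932 to 1.06), Six3 at 0.998 times (0.892 to 1.12), Fezf1 at 0.934 times (0.861 to 1.01) and Vax1 at 0.978 times (0.710 to 1.36). By these estimates, the 4 factors with more than 1000 counts differed by less than 7% between the pools. Their intervals reach further, up to 1.14 for Otx2 and down to 0.861 for Fezf1. Over all 5858 genes with 1000 to 5000 counts summed, the SD of the log2 ratio was 0.15 and 27.9% were called.

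The less abundant factors are bounded more loosely. Rax was at 1.36 times in replicate 2 (0.949 to 1.96) and Pax2 at 0.693 times (0.316 to 1.52). Vax2, with 3 and 12 counts, was at 2.77 times (0.748 to 15.3), and Six6, with 2 and 13, at 4.51 times (1.02 to 41.1). Hesx1, with 1 and 8 counts, was not tested and was at 5.54 times (0.743 to 246.0). Vax2, Six6 and Hesx1 were higher and Pax2 lower in replicate 2. Among these less abundant factors only the interval of Six6 lay above equality, and its adjusted p in the exact binomial test was 0.113. The interval of Otx2, given above, also lay just above equality. Over the 3479 genes with 10 to 50 counts summed, the class of Vax2, Pax2 and Six6, the SD of the log2 ratio was 1.16 and 8.51% were called.

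**Figure D3:**
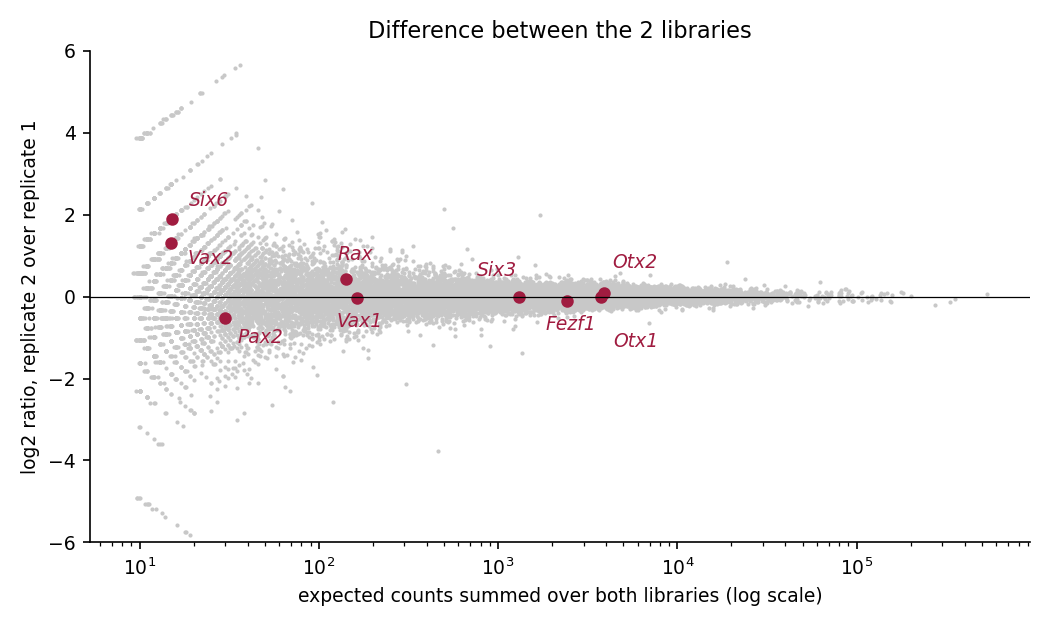
Log2 ratio of replicate 2 over replicate 1 for every gene tested (grey) and for the 9 factors tested (red), against expected counts summed over both libraries (log scale); 20 genes lie beyond the axis limit of 6. Otx2, Otx1, Fezf1 and Six3 lie near 0, and Six6 at 1.90 and Vax2 at 1.31 lie within the wide spread of genes with few counts.

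Other genes of the same pathways were read as a list. Of 31 companions in eye and forebrain patterning (ligands, receptors, retinoic acid enzymes and transcription factors), 26 reached 1 TPM in both libraries, where 58.6% of protein-coding genes did. Their median log2(TPM + 1) was 1.53 above that of protein-coding genes. The highest were Lhx2 (a LIM homeobox gene of the eye field and cortex, 146.6 ± 10.9 TPM, SD, n = 2), the secreted Wnt antagonist Sfrp1 (94.1 ± 0.297), the orphan receptor gene Nr2e1 (93.3 ± 1.03) and the ephrin gene Efnb1 (91.0 ± 0.622). All 4 were above Otx2 in both libraries. Among family relatives, 9 of 14 genes were detected, among them the dorsal telencephalic Emx2 (61.5 ± 1.53 TPM) and Emx1 (51.6 ± 2.12) and the paired-like gene Alx1 (28.9 ± 2.47). Six2, Six4, Six5 and Fezf2 were also detected.

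Markers of tissues in which the low factors are known were listed to show what the dissected forebrain held. All 6 forebrain markers were detected, with summed levels of 372.1 and 361.5 TPM, led by Lhx2, Pax6 (78.9 ± 3.23 TPM, SD, n = 2), Emx2 and Fezf2. Of 7 hypothalamic markers 6 were detected (68.7 and 65.8 TPM summed), led by Nkx2-1 at 36.15 and 28.95 TPM, so markers of ventral forebrain, where Rax and Vax1 are known, were measured in both libraries. Of 6 neural retina markers only Isl1 (26.9 and 27.4 TPM), which forebrain neurons also express, and Rlbp1 (2.75 and 2.29 TPM) were detected. The summed level of that list was 29.97 and 30.3 TPM. Its members Crx and Pou4f2, picked after their values were seen, had 0 counts in replicate 1 and 1 and 2 in replicate 2. Crx and Pou4f2 were thus below 1 TPM, as were Six6 and Vax2, which had 13.2 and 12 counts in replicate 2.

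Pigment epithelium markers summed to 8.29 and 10.2 TPM, with 2 of 7 detected. Dct stood at 5.63 and 4.48 TPM and Pmel at 1.29 and 3.54 TPM. Mitf, a defining gene of that tissue, stood at 0.62 and 1.23 TPM, Tyrp1 at 0.15 and 0.090 TPM and Rpe65 at 0.13 and 0.030 TPM. By TPM, Pmel (40 and 159 counts), Mitf (30 and 77) and the list members not named here were higher in replicate 2. Dct (186 and 214 counts) was lower, as were Tyrp1 (2 and 5) and Rpe65 (3 and 1), which rest on few counts. The part of such tissue in the levels of the factors was not tested. Lens markers gave 0 of 6 detected (3.75 and 1.49 TPM summed, Crygb at 0 counts). Olfactory markers gave 2 of 6 detected (20.0 and 17.9 TPM summed), among them Eya2 at 8.28 ± 0.141 TPM (SD, n = 2). Of the pituitary markers, Pomc, which hypothalamic neurons also express, stood at 5.13 ± 0.283 TPM (SD, n = 2), while Tbx19, a defining gene of pituitary corticotrophs, had 0 counts in both libraries. Hesx1, known from that primordium, was thus low where Tbx19 was not seen.

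Midbrain and isthmus markers, the other known site of Pax2, gave 3 of 9 detected (29.03 and 25.0 TPM summed). Fgf8 (16.1 ± 2.02 TPM, SD, n = 2), Gbx2 (4.66 ± 1.03) and Pax3 (3.60 ± 0.184) led the list, and these are also known in the forebrain. En1 stood at 0.91 and 0.86 TPM and En2 had 1 and 0 counts. En1 (35 and 48 counts) and En2 were thus below 1 TPM, as was Pax2, while Fgf8, Gbx2 and Pax3 of the same list were above it. En1 was higher than Pax2, at 0.31 and 0.16 TPM, in both libraries. Choroid plexus markers, a tissue in which Otx2 is known, gave 3 of 5 (20.5 and 19.1 TPM summed), led by Folr1 (8.66 ± 0.502), Ttr (7.48 ± 0.990) and Clic6 (2.84 ± 0.566). The part of choroid plexus in the level of Otx2 was not tested.

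**Figure D4:**
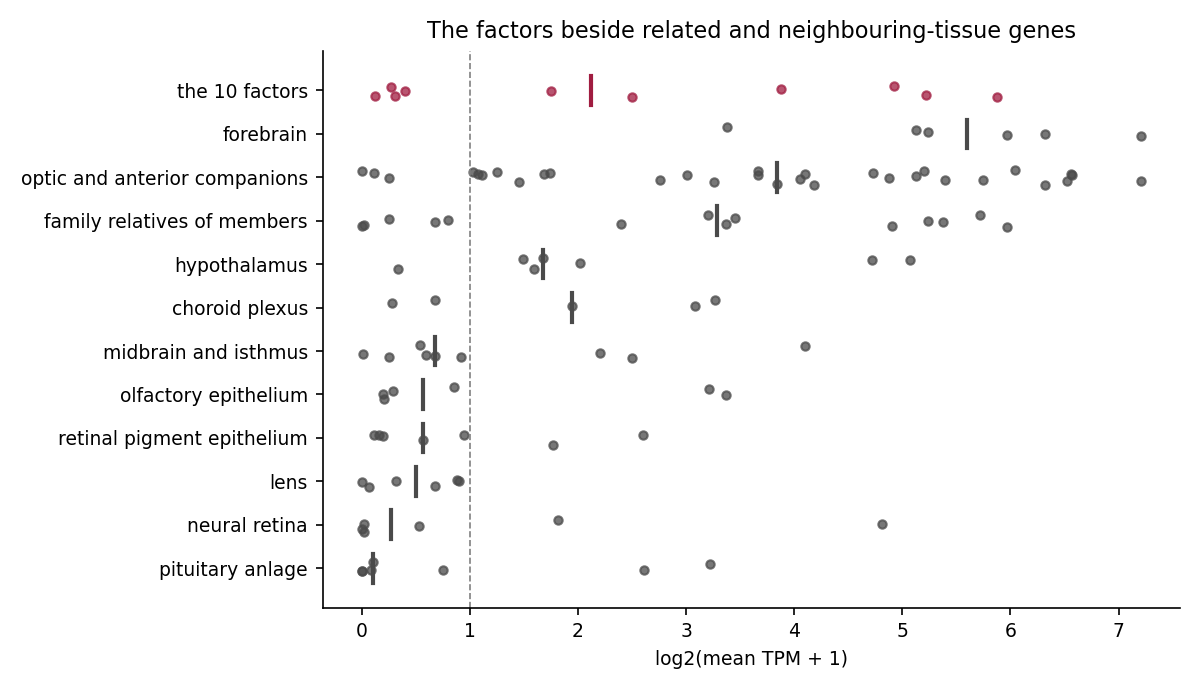
Level of each gene as log2(mean TPM + 1), for the 10 factors (red) and each comparison list (grey), with a vertical bar at the median of the list and a dashed line at 1 TPM. The factors split into 6 above and 4 below the line, all 6 forebrain markers lie above it, and no lens marker does.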

How the data were processed

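The data were deposited gene and transcript tables of 2 total RNA-seq libraries, made with a SMART-seq protocol and spike-ins per the labels. Per the deposited notes, reads were aligned to mm10 and its transcriptome with GENCODE M4; for the aligner, quantifier, filters and use of strand, nothing is stated in those sources. The deposited expected counts divide reads that fit several transcripts, so they can be fractional. Deposited TPM are scaled by length over all entries, spike-ins included, and the deposited FPKM by length and depth. The deposited percent of each gene's abundance per transcript (IsoPct) was not printed, and shares were recomputed from transcript TPM. Per the file headers the tables also give posterior mean TPM with credibility bounds, whose level is not stated.

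Names and coordinates came from GENCODE M21 (GRCm38), matched by stable identifier for 42462 of 43346 Ensembl genes. The 26345 entries with numeric or spike-in identifiers (5.66% and 5.49% of counts) stayed out of library sizes and tests. The factors and all lists were chosen with earlier results of these data known. Named genes were the 10 factors, the 4 highest members of each list, detected family relatives, genes overlapping a factor or starting on the other strand within 5 kb, and transcripts with 20% of their gene in either library. Mitf, Tyrp1, Rpe65, En2, Crx, Pou4f2, Tbx19, Crygb, Pax5 and Pax8, and the lesser transcripts Otx1-203, Otx2-205 and Otx2-208, were named beyond that rule, after their values were seen. Some genes and a sequence that these rules took are not reported here.

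Counts were rounded and compared between libraries with an exact two-sided binomial test on TMM-scaled sizes (edgeR 4.0.16, R 4.3.3; factors 1.00 and 0.997), adjusted by Benjamini-Hochberg over 18297 genes with 10 or more counts summed. Log2 ratios used a prior of 0.5 counts. The edgeR common dispersion, estimated from the same 2 libraries as 1 group, matched a coefficient of variation of 7.63% between pools. DESeq2 1.42.0 size factors were an alternative. Tested on simulated data, Poisson counts with 200 of 18270 genes changed 4-fold, the library difference recovered 100% with 2 false calls at 2-fold or more, without spread beyond counting. The changed genes were drawn from those with 100 or more counts summed. Recovery at the lower counts of Vax2, Pax2, Hesx1 and Six6 was therefore not tested. Intervals cover counting error only, since the labels mention no molecular identifiers.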

Additional observations from a re-analysis of the deposited data

How the results depend on the processing

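With 2 libraries of 1 group, leaving a library out leaves a level with no spread and no library comparison. No paired analysis was possible because there was only 1 group. The 6 detected factors remained 6 in each alternative except at 5 TPM, where 4 passed. Summed factor TPM was 142.2 by posterior mean, 166.0 rescaled to Ensembl genes and 166.03 by FPKM, which leave out spike-in and numeric entries. Counts without length scaling gave Otx2 to Otx1 1.03, Pax2 to Pax8 1.13, Pax2 to Pax5 5.26 (1.52 by TPM, 0.136 by posterior mean), Otx1-201 84.3%, Otx2-201 69.0%, Otx2-202 25.1%, Six3-202 73.0% and Six3-203 25.0%. By posterior mean Otx2-201 was 55.7% and Otx2-202 26.9%. The companion median was 1.72 above protein-coding genes with a pseudocount of 0.1. The library test called 4286 genes by binomial and 218 by the edgeR exact test, whose dispersion came from the same 2 libraries. None of 51 alternative log2 ratios of the factors changed sign. Those with another count threshold or the edgeR exact test repeat the main ratio by construction, so they could not change. Depth limits the rare factors: leaving out either library moved Six3 to Six6 between 92.3 and 450.3 (271.3 over both), Vax1 to Vax2 between 9.77 and 27.7 (18.7), Pax2 to Pax8 between 0.258 and 0.534 and Pax2 to Pax5 between 1.03 and 2, and 8 of the 9 neighbouring pairs kept their order without either. Ratios per effective length and a tolerance of 0.05 for whole counts were added after seeing the data, and the latter left 7 factors whole.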

Other observations

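The RefSeq start windows of the factors differed in base composition. Over all 32851 windows of 300 bases the median was 52.7% GC and 7 CpG pairs. The 3 Pax2 windows held 7, 23 and 30 CpG pairs, Six6 held 20, Vax1 17, Six3 14 and Fezf1 13. The 4 Otx2 windows held 6 to 16, and Hesx1, at 33.7% GC, held 4. Pax2 and Six6, which were below 1 TPM, thus had windows among the richest in CpG pairs of the factors, while Hesx1, also below 1 TPM, had the poorest. With 7 factors matched this is a description and no relation to level was tested.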
